A study of Mus musculus with 16 samples.

Results

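The regions described here are short stretches of chromatin near genes that carried H3K27me3 in arid4b-delta cells of both lineages and in WT cells of neither. They were selected on the measured H3K27me3 peaks: the 4 H3K27me3 peak lists were merged, and a merged region was kept when it was shorter than 5000 bp, lay within 2500 bp of either end of a protein-coding gene, overlapped a peak in both arid4b-delta lists and overlapped none in the WT lists. Of 25396 merged regions on chromosomes 1 to 19, X and Y, 6186 were short and near a gene end, and 507 of these (8.20%) met the whole rule. They are called the member regions. The opposite pattern, a peak in both WT lists and in neither arid4b-delta list, was found at 26 of the 6186 regions (0.420%).

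All cells were CJ9 mouse embryonic stem cells, an established line, directed to endoderm or to mesoderm for 5 days. The groups were WT and arid4b-delta, the label's name for the Arid4b mutant, and each lineage, genotype and mark (H3K4me3, H3K27me3, H3K27ac) had 1 chromatin immunoprecipitation library, so no comparison below has a replicate check or a test. The labels do not say how the mutation was made or whether the mutant line is 1 clone, and they give no detail of the differentiation agents. The series set arid4b-delta against wild type to ask what Arid4b does as stem cells commit to a lineage. Intervals in the text are exact Clopper-Pearson 95% intervals, which cover counting error only.

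H3K27me3 is the trimethylation that Polycomb repressive complex 2 places on histone H3, and in stem cells it lies mainly at CpG-rich promoters of silent developmental genes. H3K4me3 marks promoters that are active or held ready, and promoters with both marks are called bivalent. H3K27ac sits on the same lysine as H3K27me3 and marks active promoters and enhancers, so a single histone tail cannot carry both. ARID4B is a chromatin protein found in Sin3-HDAC, a complex that deacetylates histones.

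The libraries differed in ways that touch every count. The 4 H3K27me3 lists held 10326 peaks in WT endoderm, 16660 in arid4b-delta endoderm, 6150 in WT mesoderm and 9863 in arid4b-delta mesoderm. The arid4b-delta lists were also the longer ones for H3K4me3 and H3K27ac in both lineages, and a peak list does not give its library's depth. H3K27ac lay within 1000 bp of a gene end of 3 of 6 mesoderm markers (T, Pdgfra and Tbx6) in WT mesoderm and of none in the other 3 libraries. Of the 6 endoderm markers only Epcam held H3K27ac, in all 4 libraries, and Sox17, Foxa2, Gata4, Gata6 and Cxcr4 held none. Of the 4 pluripotency markers, Pou5f1 and Sox2 held H3K27ac in all 4 libraries. Nanog held it in WT endoderm and arid4b-delta mesoderm only, and Zfp42 in no library. Arid4b itself held H3K4me3 and H3K27ac and no H3K27me3 in both genotypes, so these lists do not check the mutation.

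As examples, the 250 bases before the RefSeq start are printed for 5 chosen genes whose upstream stretch lay wholly inside a member region. Of 393 members whose genes have a RefSeq start, only 24.4% held it, so these sequences do not stand for all members. They run from CpG-rich to CpG-poor and from H3K4me3 in all 4 libraries to none. Sequences are from RefSeq on build GRCm38.p6 (mm10), written 5′ to 3′ on the strand of the gene, with each CpG in capitals. Wnt3 (chr11:103773925-103774174, plus strand), a secreted Wnt ligand of the primitive streak, and Foxa3 (chr7:19023540-19023789, minus strand), a forkhead factor of the gut endoderm, had H3K4me3 in all 4 libraries. Ddx4 (chr13:112652311-112652560, minus strand), a germline RNA helicase, had it in 1 library, arid4b-delta mesoderm. Qrfprl (chr6:65381044-65381293, plus strand), a peptide receptor-like gene, and Cdx4 (chrX:103321148-103321397, plus strand), a caudal homeobox factor of the posterior embryo, had it in none.
Wnt3: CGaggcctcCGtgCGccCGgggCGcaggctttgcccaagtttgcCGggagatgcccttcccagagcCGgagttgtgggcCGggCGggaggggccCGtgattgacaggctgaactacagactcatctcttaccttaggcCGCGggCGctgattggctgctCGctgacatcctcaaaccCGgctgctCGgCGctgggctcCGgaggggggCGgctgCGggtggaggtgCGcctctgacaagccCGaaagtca
Foxa3: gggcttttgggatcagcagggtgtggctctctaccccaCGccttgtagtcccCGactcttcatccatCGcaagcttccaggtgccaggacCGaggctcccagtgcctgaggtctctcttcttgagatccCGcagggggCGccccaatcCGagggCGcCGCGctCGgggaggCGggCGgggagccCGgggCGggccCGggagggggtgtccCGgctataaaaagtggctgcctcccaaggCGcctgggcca
Ddx4: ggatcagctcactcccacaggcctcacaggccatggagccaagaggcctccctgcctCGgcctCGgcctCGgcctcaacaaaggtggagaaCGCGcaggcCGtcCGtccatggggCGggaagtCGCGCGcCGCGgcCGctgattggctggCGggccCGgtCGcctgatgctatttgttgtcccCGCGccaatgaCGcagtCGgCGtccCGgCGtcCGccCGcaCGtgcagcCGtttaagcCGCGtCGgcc
Qrfprl: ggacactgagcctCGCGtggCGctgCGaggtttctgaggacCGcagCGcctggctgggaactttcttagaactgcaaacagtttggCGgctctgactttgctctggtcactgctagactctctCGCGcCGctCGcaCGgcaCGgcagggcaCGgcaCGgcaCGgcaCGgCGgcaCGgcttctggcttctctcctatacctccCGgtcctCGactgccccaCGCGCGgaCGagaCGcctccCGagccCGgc
Cdx4: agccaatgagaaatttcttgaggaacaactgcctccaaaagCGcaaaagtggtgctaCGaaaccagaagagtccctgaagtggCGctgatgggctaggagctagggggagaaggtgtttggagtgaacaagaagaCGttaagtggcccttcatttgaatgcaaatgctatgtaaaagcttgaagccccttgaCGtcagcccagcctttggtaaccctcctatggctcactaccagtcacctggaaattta
The Qrfprl and Ddx4 stretches held 28 and 31 CpGs, with 1.01 and 1.00 times the number expected from their C and G content. Wnt3 held 22 CpGs (0.768 of expected) and Foxa3 18 (0.610). Cdx4 held 5 (0.344), and its GC content of 48.4% was the lowest of the 5.

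Across all member regions, 126 RefSeq promoter windows of 119 protein-coding genes (250 bases before to 50 after a start) overlapped a member. Their median GC content was 63.5%, against 56.3% over all 21263 such windows, and their median CpG observed over expected was 0.703 against 0.567. Windows that overlapped the other short H3K27me3 regions had nearly the same values, 65.0% and 0.716. The members' windows split by H3K4me3. The 47 windows with an H3K4me3 peak in all 4 libraries had a median CpG ratio of 0.851, the 41 with a peak in 1 to 3 libraries 0.642, and the 38 with none 0.487. Over all windows of the reference, those with H3K4me3 in no library had a median of 0.193 and those with it in all 4 had 0.818. Member windows without any H3K4me3 peak were thus richer in CpG than windows without H3K4me3 in general, and 14 of the 38 (36.8%) had a ratio of at least 0.6, against 4.34% of that wider class. Windows without H3K4me3 at the other short H3K27me3 regions were not taken apart, so this is not shown to be particular to members.

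**Figure D1:**
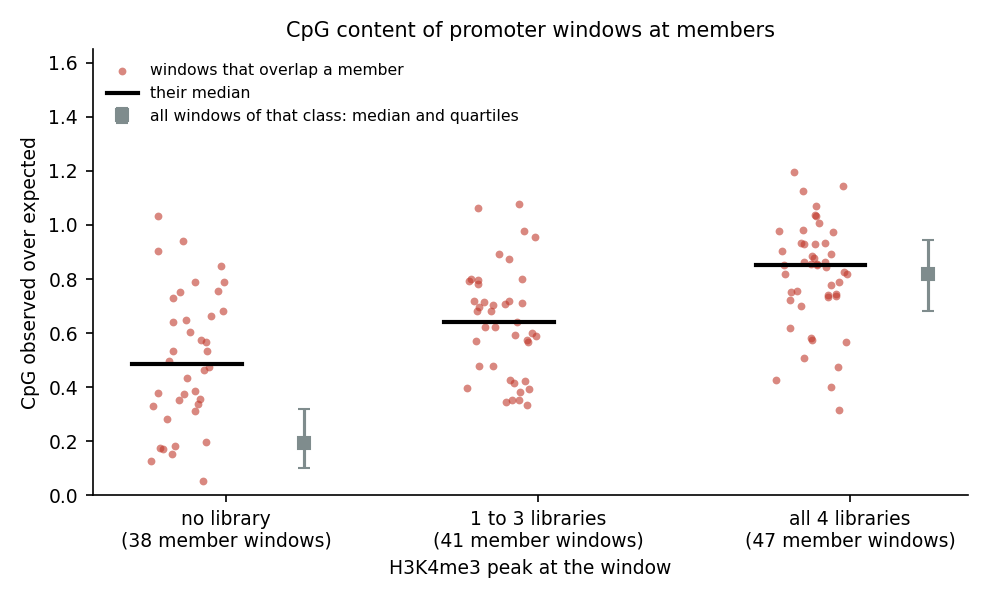
CpG observed over expected (vertical axis) of the 126 promoter windows that overlap a member region, by the number of libraries with an H3K4me3 peak at the window; each red point is 1 window and the black bar the median, and grey squares with bars give the median and quartiles of all windows of that class. The members' medians run from 0.487 with no H3K4me3 to 0.851 with H3K4me3 in all 4 libraries, and in the class without H3K4me3 most member windows lie above the grey upper quartile.

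Short motifs were searched on both strands of the 300-base windows. The GC box core GGGCGG was in 81 of the 126 member windows (64.3%), against 46.2% of all windows and 65.8% of windows at the other short H3K27me3 regions. The E-box CACGTG was in 14 (11.1%, against 7.84% of all windows), and GAGAGA in 27 (21.4%, against 22.4%). Beside the other H3K27me3 regions, whose shares were 9.23% for CACGTG and 22.1% for GAGAGA, the member windows differed little in these letters.

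Counts by pattern place the members among the 15 combinations of lists. A peak in arid4b-delta endoderm alone was found at 1439 short regions near a gene, and a peak in arid4b-delta mesoderm alone at 956. All 4 lists shared 1193. With the lists as deposited there were 19.5 member regions for each region of the opposite pattern. That excess moved with list length: when each list was cut to its 6134 peaks of highest −log10 q, as many as the shortest list had, 193 regions had the member pattern and 193 had the opposite one. The cut keeps peaks down to a −log10 q of 3.07 in arid4b-delta endoderm and 1.79 in arid4b-delta mesoderm, but 1.27 in WT endoderm and 0.307 in WT mesoderm. Of the 507 member regions, 142 (28.0%) kept the pattern under it, among them all of the first 12 named below. Those 12 were ordered by the same −log10 q that made the cut, and the cut only takes peaks from the WT lists. Their place was thus fixed in advance and is no check of them.

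**Figure D2:**
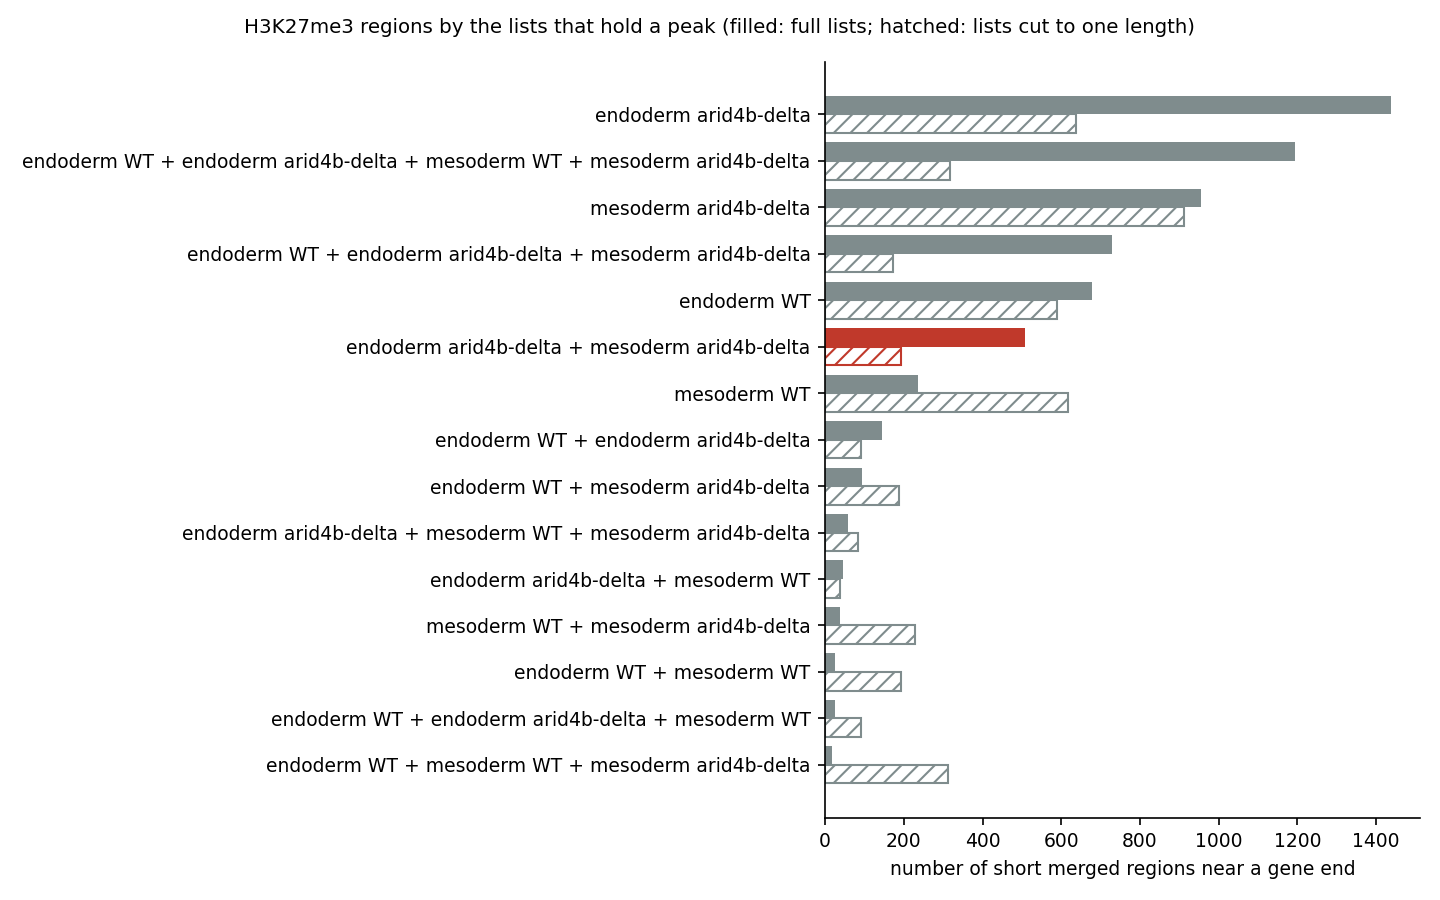
Number of short merged H3K27me3 regions near a gene end (horizontal axis) for each combination of the 4 lists that hold a peak; filled bars are the lists as deposited, hatched bars the lists cut to 6134 peaks each, and the member pattern is in red. The member pattern falls from 507 to 193 regions under the cut, while the pattern of both WT lists only goes from 26 to 193.

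The member regions were short and mostly simple. Their width ran from 244 to 4858 bp with a median of 1098 bp (quartiles 751 and 1630), between the 648 bp of the other short regions and the 3108 bp of regions shared by all 4 lists. In 480 of 507 the region was 1 peak of each arid4b-delta list. Width hardly limited the set: 1258 merged regions had the pattern at any width and place and 1257 of them were shorter than 5000 bp, whereas 508 lay within 2500 bp of a gene end. The widest members were at Dscaml1 (4858 bp), at Nrgn (4851 bp) and beside Esam (4558 bp), and the 1 region left out by width was at Zmiz1 (5630 bp). The members farthest from a gene end were at Aspa (2486 bp), Epha4 (2441 bp) and Dmrtb1 (2417 bp), and the regions just outside the limit were at Zscan2 (2517 bp), Tox3 (2517 bp) and H2-Q10 (2554 bp).

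A gene end fell inside 139 of them (27.4%). Of 393 members whose genes have a RefSeq start, 96 (24.4%) held it, 87 (22.1%) lay wholly before it and 139 (35.4%) wholly after it within 2500 bp, and 71 (18.1%) were nearer the other end of the gene. The other short regions had similar shares (27.2%, 19.8%, 31.4% and 21.5%), whereas 69.4% of the regions shared by all 4 lists held the start. The sources used here give no transcript models, so exonic and intronic regions could not be told apart.

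The strength of the members' peaks was near that of their whole lists. In column 9 of the deposited lists, the −log10 q of a peak, members had a median of 2.19 in arid4b-delta endoderm (range 0.333 to 56.7; 1.94 over all peaks of that list) and 2.54 in arid4b-delta mesoderm (0.398 to 47.8; 2.55 over all peaks). Fold enrichments, also the authors' values, had medians of 2.10 and 2.33. A −log10 q of at least 2 in both lists, a q-value of 0.01 or less, was reached by 173 members (34.1%), and a value of at least 1 by 325 (64.1%). The first 12 members, ordered by the lower of the 2 values, follow. These values chose the regions and are a description only.

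Klf15, a Krüppel-like zinc finger factor, came first: its region (chr6:90461282-90461962, 239 bp from a gene end) had a −log10 q of 27.2 in arid4b-delta endoderm and 40.8 in arid4b-delta mesoderm, with folds of 3.94 and 4.37. H3K4me3 was present there in arid4b-delta endoderm only. Dqx1, a putative RNA helicase gene, followed with −log10 q of 18.96 and 42.1, and its region lay 1635 bp from the nearest WT H3K27me3 peak. Erbb2, a receptor tyrosine kinase, had 2 member regions on either side of its start, at 800 bp and 183 bp from it, with −log10 q of 13.4 and 13.2 at the first and 10.9 and 5.46 at the second. The second also held H3K4me3 in all 4 libraries and the first in none, so neighbouring stretches of 1 locus fell in different classes. Frat2, which binds GSK3 in the Wnt pathway, and Jak2, the kinase behind many cytokine receptors, had −log10 q of 13.0 and 15.3, and of 11.6 and 19.7. Both held H3K4me3 in all 4 libraries, and H3K27ac in mesoderm of both genotypes and in endoderm of neither.

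Pkdrej, a polycystin-family gene of sperm, had −log10 q of 12.8 and 14.7 and H3K4me3 in arid4b-delta mesoderm only. Gimap1, an immune GTPase, had 16.7 and 11.3 and H3K4me3 in arid4b-delta of both lineages and in WT of neither. Pla2g12b, a phospholipase A2 family gene (12.7 and 15.2), Mcoln2, a lysosomal cation channel (11.6 and 10.96), Zfp362, a zinc finger gene (11.6 and 10.4), Mdm4, an inhibitor of p53 (10.2 and 17.9), and Qrfprl (10.2 and 47.8) held neither H3K4me3 nor H3K27ac in any library.

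Chromosome 6 was over-represented at the top of this order, and the peak values there had another scale. It held 32 of the 507 members and 13 of the first 30. In a stretch from 50 to 90 Mb, chosen after its values were seen, H3K27me3 peaks had a higher −log10 q for the same fold in all 4 lists: the median ratio of −log10 q to fold was 2.29 against 0.771 elsewhere in WT endoderm, 5.28 against 0.962 in arid4b-delta endoderm, 2.27 against 0.553 in WT mesoderm and 4.86 against 1.09 in arid4b-delta mesoderm. In the H3K4me3 and H3K27ac lists the ratios were alike, from 1.01 to 3.04 inside the stretch and from 1.02 to 3.18 outside. The 10 members in the stretch had a median fold of 2.14 in endoderm and a −log10 q of 9.63, while members elsewhere had 2.10 and 2.12. The bounds are not sharp: Klf15, Gimap1 and Chst13, on chromosome 6 just outside them, had −log10 q of 27.2, 16.7 and 9.59 at endoderm folds of 3.94, 2.46 and 2.59. Of whole chromosomes, 9 had the ratio of 2.99 in the WT mesoderm list, against 1.51 for chromosome 6. Without chromosome 6 there were 475 members and 26 regions of the opposite pattern.

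**Figure D3:**
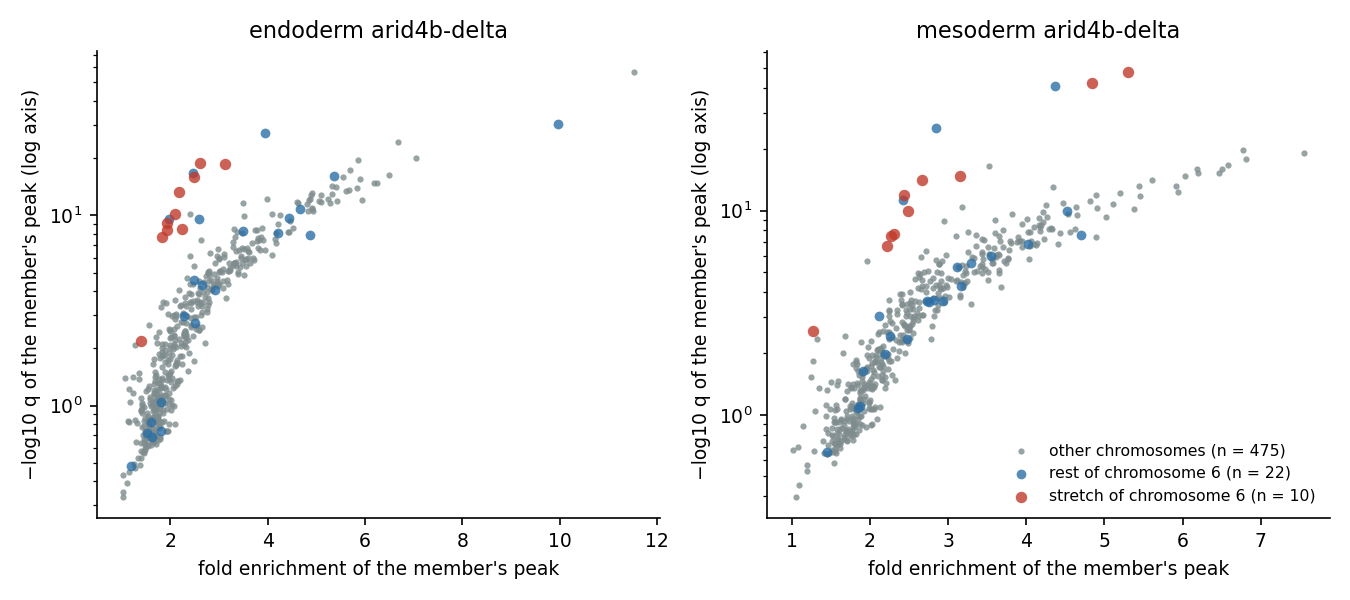
−log10 q (vertical, log axis) against fold enrichment (horizontal) of the members' peaks in the arid4b-delta endoderm list (left) and the arid4b-delta mesoderm list (right); each point is 1 member, red for the 10 in the chromosome 6 stretch, blue for the 22 on the rest of chromosome 6 and grey for the other 475. At folds near 2 the red points lie above the grey band in both lists.

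H3K4me3, which took no part in the selection, was found at fewer members in WT than in arid4b-delta in both lineages. In endoderm a peak overlapped 164 members in WT (32.3%, interval 28.3 to 36.6) and 246 in arid4b-delta (48.5%, 44.1 to 53.0). In mesoderm it overlapped 198 in WT (39.1%, 34.8 to 43.5) and 272 in arid4b-delta (53.6%, 49.2 to 58.1). The other short regions had 39.2%, 50.01%, 44.7% and 52.4% in the same order, and regions with H3K27me3 in all 4 lists 69.0%, 89.8%, 81.6% and 92.9%. Against the pooled others, members were lower in WT, with intervals that did not overlap in endoderm (38.0 to 40.5% at the others) and met at their edges in mesoderm (43.4 to 46.0%), and the intervals overlapped in arid4b-delta. That order depended on the 1193 regions of all 4 lists. The 4486 others without them, a comparison added after the data were seen, had 31.3% (29.99 to 32.7), 39.4% (38.0 to 40.9), 34.8% (33.4 to 36.3) and 41.6% (40.1 to 43.1), so that the members' intervals overlapped theirs in WT and lay above them in arid4b-delta. Regions with H3K27me3 in arid4b-delta endoderm alone had 16.4%, 22.4%, 19.1% and 23.98%, and those in arid4b-delta mesoderm alone 19.2%, 25.6%, 22.3% and 28.2%, below members in every library. These single-list regions were also narrower, with median widths of 417 and 392.5 bp against 1098 bp, and were not set beside members at equal width. Width moved with the H3K4me3 shares of members and of the 4486: below 750 bp, WT H3K4me3 was at 22.8% of members and 23.4% of the 4486 in endoderm and at 26.8% and 25.6% in mesoderm, but at 1500 bp and over members were lower, at 41.2% against 61.8% and 49.7% against 69.5%. In arid4b-delta, members were higher below 750 bp, at 37.0% against 28.9% in endoderm and 39.4% against 30.6% in mesoderm. From 750 to under 1500 bp the arid4b-delta shares were near, at 47.1% against 49.9% and 52.9% against 52.2%. At 1500 bp and over members were lower in arid4b-delta too, at 60.1% against 79.2% and 66.7% against 83.4%.

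**Figure D4:**
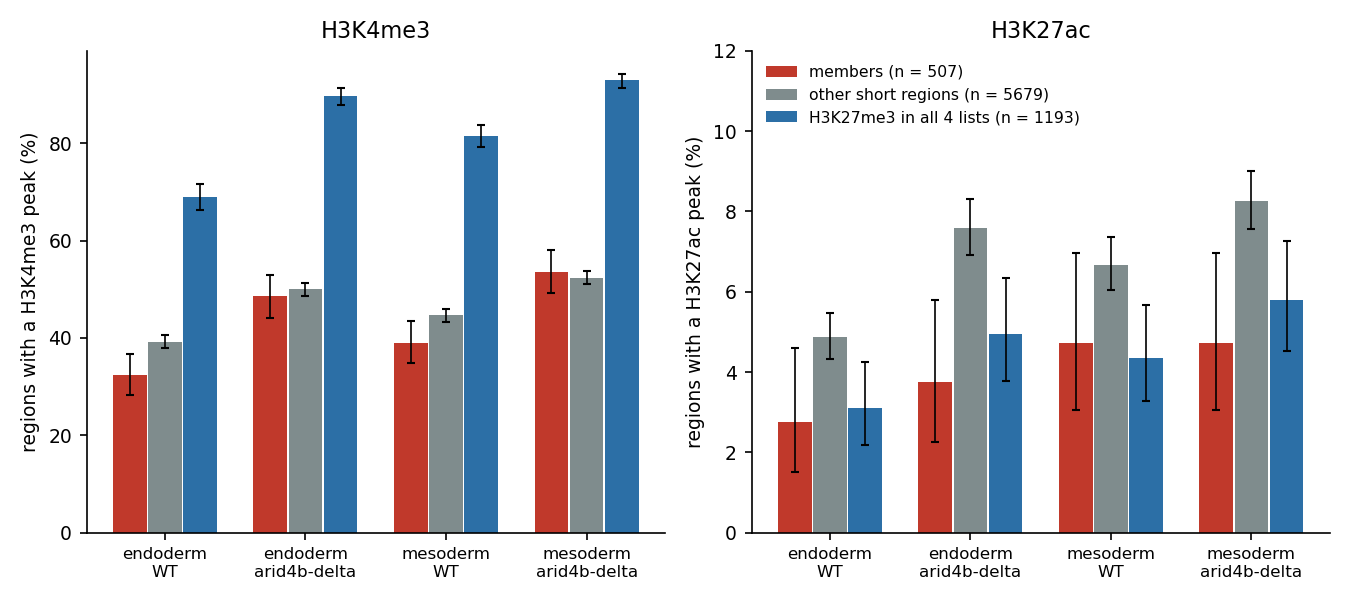
Percent of regions with an H3K4me3 peak (left) or an H3K27ac peak (right) in each of the 4 libraries, for the 507 members (red), the other 5679 short regions (grey) and, among the latter, the 1193 with H3K27me3 in all 4 lists (blue); bars on the columns are exact 95% intervals, and the 2 vertical axes differ. Members lie below the pooled other regions for H3K4me3 in WT and for H3K27ac in every library; for H3K4me3 in WT this order holds only with the blue class among the others.

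Where H3K4me3 differed between genotypes at members, it was nearly always present in arid4b-delta. In endoderm 82 members (16.2%, 13.1 to 19.7) had H3K4me3 in arid4b-delta alone and 0 in WT alone, an exact upper limit of 0.725%. In mesoderm 78 (15.4%) had it in arid4b-delta alone and 4 (0.789%) in WT alone. Among the other short regions, 10.9% in endoderm and 7.96% in mesoderm had it in arid4b-delta alone, and 0.176% and 0.247% in WT only, so the direction was the same there and the share at members was above that of the pooled others. Regions with H3K27me3 in all 4 lists had it in arid4b-delta alone at 21.0% in endoderm and 11.5% in mesoderm, above members in endoderm and below them in mesoderm, and the 4486 others without these had 8.27% and 7.02%. Both arid4b-delta libraries and neither WT library held it at 34 members (6.71%), against 4.33% of the other short regions and 7.12% of regions with H3K27me3 in all 4 lists. The H3K4me3 lists were also longer in arid4b-delta (25272 against 22292 peaks in endoderm, 26852 against 21752 in mesoderm), and the part of list length in these shares was not tested.

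The higher share depended on width. Among regions below 750 bp, H3K4me3 in arid4b-delta only was at 18 of 127 members (14.2%) and 5.65% of other regions in endoderm, and at 16 (12.6%) and 5.14% in mesoderm. From 750 to under 1500 bp the shares were 15.4% of 227 members and 11.4% of others in endoderm, and 15.4% and 8.95% in mesoderm. At 1500 bp and over, members stood at 18.95% of 153 in endoderm, just below the 20.1% of other regions, and at 17.6% against 12.5% in mesoderm. Without the regions of all 4 lists, the others' share at 1500 bp and over was 17.5% in endoderm and 14.1% in mesoderm.

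**Figure D5:**
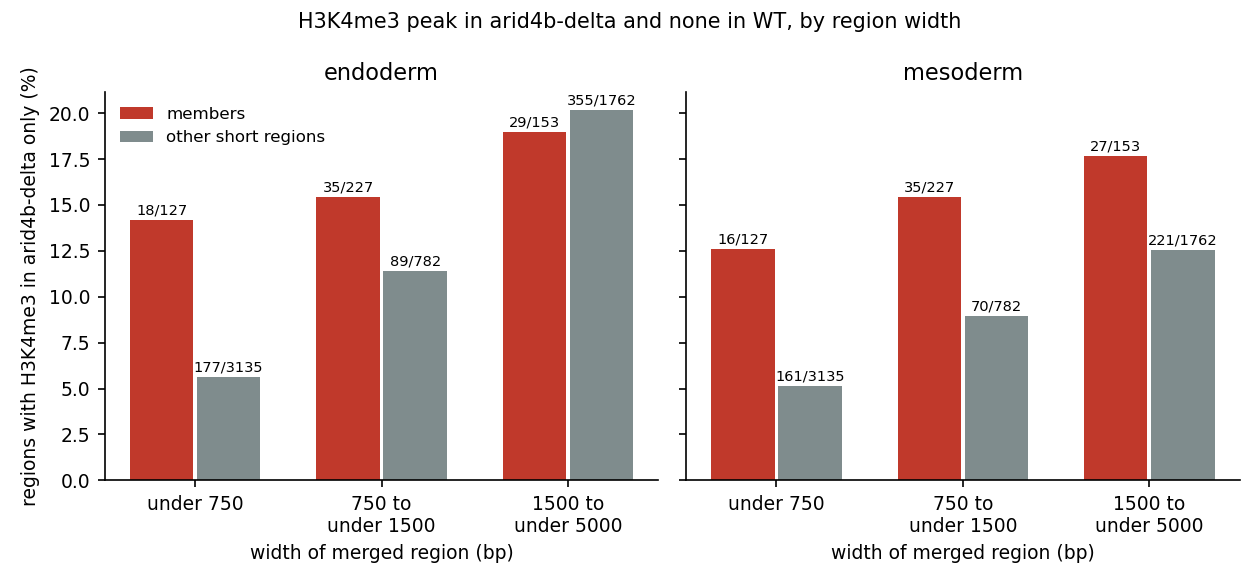
Percent of regions with an H3K4me3 peak in arid4b-delta and none in WT (vertical axis) in 3 ranges of region width (horizontal axis), for members (red) and other short regions (grey), in endoderm (left) and mesoderm (right); the fraction over each column is the number of regions. Members lie above the other regions in every range but the widest in endoderm, where 29 of 153 members stand against 355 of 1762.

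Taking the 4 H3K4me3 libraries together, 153 members (30.2%, 26.2 to 34.4) held H3K4me3 in all of them and 220 (43.4%, 39.0 to 47.8) in none. The other short regions had 38.2% and 46.6%, and those without the regions of all 4 lists 30.4% and 57.3%. After Frat2 and Jak2, the next members in the order with H3K4me3 throughout were at Areg, an EGF receptor ligand, Rxra, a retinoid receptor, and Exoc6b, an exocyst subunit. The Areg region (chr5:91139139-91141048) had −log10 q of 9.07 and 8.61, and no H3K27ac in any library. The Rxra region had 8.52 and 9.63 and lay 209388 bp from the nearest WT H3K27me3 peak. Exoc6b (8.47 and 14.8, with folds of 2.24 and 3.15) lies in the chromosome 6 stretch, where −log10 q runs higher for the same fold. Neither H3K4me3 nor H3K27ac was found in any library at 209 members (41.2%, 36.9 to 45.6), beside 44.2% of the other short regions and 54.7% of those without the regions of all 4 lists. Reaching out 1000 bp from the members, WT H3K4me3 of either lineage was near 285 (56.2%) and arid4b-delta H3K4me3 near 364 (71.8%). The same distance was not taken for the other short regions, so these counts have no share to stand beside.

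H3K27ac was rare at members in every library. It overlapped 14 in WT endoderm (2.76%, 1.52 to 4.59), 19 in arid4b-delta endoderm (3.75%, 2.27 to 5.79), and 24 each in WT and arid4b-delta mesoderm (4.73%, 3.06 to 6.96). The other short regions had 4.88%, 7.59%, 6.67% and 8.26%. Intervals of members and others did not overlap in arid4b-delta of both lineages and did overlap in WT. That gap changed with width, given here below 750 bp, from 750 to under 1500 bp, and at 1500 bp and over. In arid4b-delta endoderm members had 3.94%, 3.52% and 3.92%, and others 9.15%, 7.93% and 4.65%. In arid4b-delta mesoderm members had 7.09%, 3.08% and 5.23%, and others 9.76%, 8.31% and 5.56%. Members and others were thus near each other at 1500 bp and over. Regions with H3K27me3 in all 4 lists had 3.10%, 4.95%, 4.36% and 5.78%, within the members' intervals in all 4 libraries. Regions with H3K27me3 in arid4b-delta endoderm alone had 3.54%, 7.30%, 5.14% and 5.70%, and those in arid4b-delta mesoderm alone 4.50%, 4.92%, 4.81% and 7.11%. Their intervals overlapped the members' except for the endoderm-alone regions in arid4b-delta endoderm (6.01 to 8.76). Low H3K27ac was thus not particular to members. At least 1 library had H3K27ac at 47 members (9.27%).

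Few members had H3K27ac that WT cells alone carried. It was in WT only at 9 members in endoderm (1.78%) and 11 in mesoderm (2.17%), against 1.04% and 1.67% of the other short regions. The mark was present in arid4b-delta alone at 14 (2.76%) and 11 (2.17%), against 3.75% and 3.26%. Within 1000 bp of a member, H3K27ac of either lineage was found at 75 in WT (14.8%) and 72 in arid4b-delta (14.2%). The arid4b-delta H3K27ac lists were the longer ones (35884 against 14216 peaks in endoderm, 22747 against 12496 in mesoderm). Distances to H3K27ac were not taken for the other short regions, so nothing particular to members is read from these 2 counts.

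Among members with H3K27ac in WT only were Dennd5b, a Rab regulator, Cracd, Map3k6, a kinase, and Fgf10, a fibroblast growth factor of budding organs, all in mesoderm, and Rflnb and Vmn2r29, a vomeronasal receptor, in endoderm. The Cracd peak in WT mesoderm had a fold of 7.91 and the Dennd5b peak 6.79, near the list's median of 7.06. One further region, within 2500 bp of Zfp36l1 (chr12:80113738-80114614), had H3K27ac in WT of both lineages and in arid4b-delta of neither, with folds of 8.55 and 13.6. At Wnt3 the WT endoderm library had H3K27ac with a fold of 6.34 and arid4b-delta endoderm had none. Has3, a hyaluronan synthase, and Wwtr1, which encodes the Hippo pathway effector TAZ, held H3K27ac in arid4b-delta of both lineages and in WT of neither, beside H3K4me3 in all 4 libraries. One region near a predicted gene also held H3K27ac in arid4b-delta of both lineages and in WT of neither. Has3 had H3K27ac folds of 4.40 in endoderm and 6.74 in mesoderm, and Wwtr1 5.10 and 11.6. E2f6, a transcriptional repressor, the second Erbb2 region and Naaladl2 held it in arid4b-delta mesoderm only, and Pdia3, a protein disulfide isomerase, in arid4b-delta endoderm only. At Has3, Wwtr1, E2f6, Naaladl2 and this Erbb2 region, H3K27me3 and H3K27ac were thus called in the same region in arid4b-delta mesoderm. The same held at all 24 members with H3K27ac in that library (4.73%), and 8.26% of the other short regions had H3K27ac there.

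A part of the members bordered H3K27me3 that WT cells already had. The median distance from a member to the nearest WT H3K27me3 peak of either lineage was 28741 bp (range 12 to 875718). It was within 1000 bp at 82 members (16.2%), within 5000 bp at 170 (33.5%) and within 50000 bp at 288 (56.8%). Regions with a peak in 1 arid4b-delta list alone were closer, with medians of 10275 bp (endoderm) and 12239 bp (mesoderm) and 43.9% and 41.4% within 5000 bp. Members with no WT peak within 5000 bp numbered 337.

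The members lay near 560 protein-coding genes, 2.56% of the 21887 in the RefSeq table, and 531 of these have a named symbol. From the developmental, chromatin and housekeeping lists, 20 of 352 genes (5.68%, 3.50 to 8.64) had a member, at 21 regions. Since listed genes carry H3K27me3 more often, the base matters: of the 114 listed genes with any short H3K27me3 region, 17.5% had a member, and of the 4857 genes with any such region over the whole table, 11.5% had one. Primitive streak and mesendoderm genes had 4 of 22 (Eomes, Wnt3, Wnt8a and Cdx4), genes of Nodal, Wnt, BMP and FGF signalling 4 of 32 (Wnt3, Fgf10, Fgfr2 and Id2), and mesoderm genes 3 of 34 (Etv2, Tcf15 and Snai1). Of genes with any short region, these are 4 of 13 (30.8%), 4 of 15 (26.7%) and 3 of 12 (25%). On that base trophoblast genes had 2 of 4, fibroblast genes 2 of 5, housekeeping genes 1 of 6 and epithelial junction and keratin genes 1 of 17. With counts this small, no list is singled out. No Hox gene (0 of 39), Polycomb component (0 of 30), naive pluripotency gene (0 of 14) or general pluripotency gene (0 of 16) had one, but few of these had any H3K27me3 region shorter than 5000 bp (1, 5, 6 and 5 genes), so nothing is read from these counts.

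In the streak and mesoderm lists the regions were of unequal strength. Snai1, the zinc finger repressor of epithelial genes in gastrulation, had 2 member regions, on either side of its start, at chr2:167538299-167539294 (−log10 q of 7.61 in endoderm and 7.07 in mesoderm) and chr2:167536586-167537571 (14.1 and 4.12). The first held H3K4me3 in all 4 libraries and the second in none. Wnt8a, another Wnt ligand of the streak, had 4.55 and 6.72, at 1794 bp from a gene end and with neither other mark. Wnt3 (chr11:103771763-103775500) had the highest endoderm value of all members, 56.7 with a fold of 11.5, and a mesoderm value of 1.71. Eomes, the T-box factor that drives mesendoderm, was the reverse, with 0.960 in endoderm and 16.0 in mesoderm, and its region lay 2125 bp from a gene end and 931 bp from a WT H3K27me3 peak. Cdx4 had 1.02 and 0.900, so both peaks were weak.

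Tcf15, a helix-loop-helix factor of paraxial mesoderm, had −log10 q of 3.52 and 2.56, and a WT peak lay 1954 bp away. Etv2, the ETS factor of blood and endothelial progenitors, had 1.89 and 0.571, and a WT peak lay 185 bp away. Of endoderm genes, Trh, the precursor of thyrotropin-releasing hormone, had 9.59 and 3.04 and Foxa3 1.01 and 0.791. At Foxa3 the H3K4me3 peaks had folds of 4.82 (WT endoderm), 12.8 (arid4b-delta endoderm), 4.48 (WT mesoderm) and 28.9 (arid4b-delta mesoderm), each the authors' value within its own list. Fgf10 had 2.31 and 5.21 over 3844 bp and H3K27ac in WT mesoderm only. Fgfr2, a receptor of such ligands, had 1.15 and 4.20, and Id2, an inhibitor of helix-loop-helix factors, 1.25 and 2.59. Id2 was the 1 listed gene with H3K4me3 in WT only, in mesoderm.

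The other listed genes were Zic2 (0.767 and 4.97), a zinc finger factor of the epiblast and neural plate, with H3K4me3 and H3K27ac in all 4 libraries, and Vim (8.60 and 2.74), an intermediate filament, with neither mark at the region. Ddx4 had 5.25 and 16.7. Krt7 (2.84 and 0.805), a keratin, Thy1 (1.03 and 0.876), a surface glycoprotein, Kmt2c (5.66 and 0.856), an H3K4 methyltransferase, Ogt (0.781 and 0.663), the O-GlcNAc transferase of the Sin3-HDAC list, and B2m (2.22 and 1.37), a housekeeping gene of the class I complex, complete the set. Of the 21 regions at listed genes, 7 held H3K4me3 in all 4 libraries, 9 in none and 5 in 1 to 3, and 3 held H3K27ac in any. In 9 the weaker −log10 q was below 1, and 7 lay within 2500 bp of a WT peak. Under the cut to equal list length 7 of the 21 kept the pattern, at Snai1 (both regions), Ddx4, Wnt8a, Trh, Vim and Tcf15. These are the listed regions whose −log10 q lay above the cut in both arid4b-delta lists, so this is no separate check of them.

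Protocadherins, cell adhesion proteins best known from neurons, had a member at 19 of 69 genes (27.5%), and at 32.8% of the 58 with any short H3K27me3 region. Of their 17 regions, 16 lay in the clustered genes of chromosome 18, whose neighbouring copies are similar in sequence, so the placement of reads there is uncertain and the regions are not independent. These 16 were 366 to 3540 bp wide with a median of 1808 bp, and their −log10 q ran from 0.752 to 5.80 in endoderm and from 0.580 to 12.3 in mesoderm. At 7 of them H3K4me3 was found in at least 1 library, and at none was H3K27ac found. Potassium channels had 8 of 94 genes (8.51%), among them Kcnj5 with 2 regions, which is 17.0% of the 47 with any short H3K27me3 region. Wnt and Fzd genes had 4 of 29, or 22.2% of the 18 with any, at 3 regions, since Wnt9b is counted through the Wnt3 region. Both stand beside the 11.5% over the whole table. On the same base forkhead factors had 3 of 13 (23.1%) and keratins 2 of 10 (20%). Solute carriers had 9 of 107 (8.41%) and tripartite motif genes 0 of 16. Potassium channels and Wnt and Fzd genes are thus not singled out among the families. Olfactory receptors had 1 of 1110 and replication-dependent histones 0 of 67, and few genes of either family had any short H3K27me3 region (11 and 3). At 18 genes 2 member regions were found, among them Snai1, Erbb2, Kcnj5, Dmrt3 and B4galt5.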

How the data were processed

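Chromatin of CJ9 cells fixed for 8 min was profiled in 12 ChIP libraries with a deposited peak list each; the 4 inputs were not analysed here. Bowtie2, Picard and MACS2 are named as the authors' tools, and mm10 as their build, per the submitters' processing notes; versions and settings are not given in the sources used here. Column 5 of each deposited list is the authors' peak score and column 7 their fold enrichment, a ratio over control or background. In column 8 the authors gave a −log10 p and in column 9 a −log10 q for each peak, and column 10 of the narrow lists is the summit position set by the authors. Scores, −log10 p and summits were not used. Fold and −log10 q depend on each library's background and depth, which the lists do not give, so they were described within a list only.

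Peaks on chromosomes 1 to 19, X and Y were merged where they shared at least 1 bp and joined to 21887 protein-coding genes of a RefSeq table (GRCm38.p6, the same build as mm10). A mark was counted at a region when its peak overlapped by at least 1 bp. Of the genes, 17492 had a promoter window in the RefSeq sequence table. The interval code was tested on simulated data. Python 3.11.15, pandas 2.3.3, numpy 2.4.6 and scipy 1.17.1 were used. With 1 library per group no test was made. Members were ordered by the lower arid4b-delta −log10 q, and the text names the first 12, those at listed genes, up to 8 with H3K27ac in 1 genotype only in each direction, the first 5 with H3K4me3 in all 4 libraries or with neither mark, and the 3 closest to each limit. The chosen members, the 18 gene lists and the 21 symbol families were set with earlier results of these data known, and family patterns were tightened after the gene table was seen. Other distances, widths, merging, thresholds and list lengths were tried.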

Additional observations from a re-analysis of the deposited data

Results flagged for a closer look

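At 1 member, Pcdhac1 of the clustered protocadherins, H3K4me3 differed between genotypes in opposite directions: it was in arid4b-delta only in endoderm and in WT only in mesoderm. H3K27ac did so at 2 members, Socs5, a suppressor of cytokine signalling, and Phlpp1, a phosphatase, each with H3K27ac in WT only in endoderm and in arid4b-delta only in mesoderm. These differences between lineages were not tested, since each rests on 1 library per group.

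Outside chromosomes 1 to 19, X and Y, on contigs that the member regions leave out, arid4b-delta endoderm had 86 H3K27me3 peaks against 29 in WT, and arid4b-delta mesoderm had 24 against 16. The arid4b-delta lists were the longer ones in both lineages, and the part of list length in these counts was not tested.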

How the results depend on the processing

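In all, 229 values were recomputed under 20 settings, of which 164 stayed within 1.5 times the count or inside the interval of the share and 65 moved. Each cause was not tested beyond the setting's own construction. Cut to 6134 peaks by −log10 q, the lists gave 193 members and 193 regions of the opposite pattern, and cut by fold, an alternative chosen after seeing the data, 194 and 204. Requiring no WT peak within 5000 bp left 337 members, and a gene end within 1000 bp left 16 of the opposite pattern. A −log10 q of at least 1.3 or 2 in every list gave 515 and 434 members, of which 262 and 173 of the 507 are a part.

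H3K4me3 shares follow in the order WT and arid4b-delta endoderm, WT and arid4b-delta mesoderm. They were 39.3%, 57.1%, 46.0% and 62.2% within 1000 bp of a gene end, and 28.1%, 41.7%, 33.7% and 46.9% within 5000 bp. With no WT peak within 5000 bp they were 38.6%, 56.4%, 46.6% and 63.8%. At −log10 q of at least 1.3 they were 48.5%, 64.1%, 53.4% and 69.1%, and at 2 they were 49.5%, 68.7%, 57.4% and 73.3%. Counting H3K4me3 within 1000 bp gave 49.1%, 63.7%, 54.0% and 70.0%, and over at least 20% of the region 19.9%, 36.1%, 26.0% and 41.4%. With start sites only, WT endoderm was 36.9%, WT mesoderm 44.3% and arid4b-delta mesoderm 59.3%. Merging peaks up to 1000 bp apart gave 43.7% in WT and 58.2% in arid4b-delta mesoderm. The cut lists gave 53.4% and 61.1% in arid4b-delta endoderm and mesoderm. In each of these settings arid4b-delta stood above WT where both are given.

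H3K27ac shares, in the same order, were 7.89%, 8.48%, 12.4% and 12.4% within 1000 bp, 1.38%, 1.97%, 1.78% and 1.58% over at least 20% of the region, and 1.18%, 1.97%, 2.96% and 2.96% from peaks of at least the median fold. The cut lists gave 1.55% in arid4b-delta endoderm and 2.59% in WT mesoderm, with 1.04% in arid4b-delta only in endoderm and 1.04% in WT only in mesoderm. In 1 genotype only, counting within 1000 bp gave 4.34% for each genotype in mesoderm, and coverage of 20% gave 0.789% (WT) and 1.38% (arid4b-delta) for endoderm, then 0.986% and 0.789% for mesoderm. At −log10 q of at least 2, arid4b-delta only in mesoderm was 3.92%. Among listed genes with any short region, 17.5% had a member. No paired analysis was possible because each group had 1 library. Depth is unknown, so a missing WT peak does not show that the mark was absent.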
